A study of Mus musculus with 17 samples.

Results

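The miR-99 and miR-100 family was followed by small RNA sequencing while mouse embryonic stem cells (ESCs) of lines B8 and D3 differentiated. Its members were taken by name, as every row of the deposited miRNA table named for miR-99a, miR-99b or miR-100, from either arm of the precursor hairpin. This gave 6 of 1033 rows, of which 4 passed a filter on low values (mmu-miR-99b-5p, mmu-miR-100-5p, mmu-miR-99a-5p and mmu-miR-99b-3p, written below without the prefix mmu for mouse). The other 2, miR-99a-3p and miR-100-3p, did not pass and were left out of the main test.

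ESCs are pluripotent cells of the early embryo, and both lines were kept at day 0 without feeder cells in serum medium with LIF, the cytokine that holds them undifferentiated. Day 7 samples were embryoid bodies, rounded aggregates of differentiating cells started in hanging drops. Day 21 samples were the outgrowths that such bodies form. From the start of differentiation both lines were in medium with no LIF and with retinoic acid (RA in the labels) and the supplements named ITS and N2, so day, medium and culture form cannot be told apart. No transgene or selection is named in the labels, and the strain or clone behind each line is not given in the sources used here. Of the 14 libraries, 6 were B8 (3 each from days 0 and 7) and 8 were D3 (3 from day 0, 2 from day 7, with replicate numbers 2 and 3, and 3 from day 21). Day 21 of B8 (3 samples) was not analysed here. The labels do not say whether replicates were separate cultures, so each p-value reflects sample-to-sample spread that could be technical.

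miRNAs are short RNAs that guide Argonaute proteins to messenger RNAs, mainly through the seed, bases 2 to 8 from the 5′ end. The miR-99 and miR-100 family is old in animal evolution and is known for targeting the growth kinase mTOR and related signalling genes. In mammals its genes sit beside a let-7 gene and a miR-125 gene, in clusters that are known to be low in pluripotent cells and active in differentiated ones. let-7 miRNAs are best known as promoters of differentiation, and their maturation is held back in ESCs by the RNA-binding protein LIN28.

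The mature sequences show how the family is built, and all 6 rows were matched to RefSeq (GRCm38.p6) by name. Each is given 5′ to 3′ with its seed in capitals.
miR-99b-5p: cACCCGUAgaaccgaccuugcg
miR-100-5p: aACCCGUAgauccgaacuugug
miR-99a-5p: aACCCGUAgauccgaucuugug
miR-99b-3p: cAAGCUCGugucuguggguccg
miR-99a-3p: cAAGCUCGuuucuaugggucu
miR-100-3p: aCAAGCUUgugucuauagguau
The 3 miRNAs of the 5p arm have 1 seed, ACCCGUA, and no other of the 1679 mature names in the RefSeq table has it. The 3p arms fall into different seeds, AAGCUCG in miR-99a-3p and miR-99b-3p and CAAGCUU in miR-100-3p. Counting from the 5′ end, miR-100-5p and miR-99a-5p differed by a single substitution, A16U. miR-100-5p and miR-99b-5p differed by 4 (A1C, U11A, A16C and U21C). How reads that match several miRNAs were counted is not stated, so values of miR-99a-5p and miR-100-5p are uncertain one by one.

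Each family gene lies on the plus strand in an intron of a host gene (GENCODE M21, GRCm38). Mir99b, at chr17:17830188-17830257, is intronic in 2 of 16 transcripts of the protein-coding gene Spaca6, with Mirlet7e 94 bases and Mir125a 554 bases after its end, and that cluster spans 692 bases. Mir100, at chr9:41531425-41531504, is intronic in 13 of 48 transcripts of the noncoding gene 3110039I08Rik, with Mirlet7a-2 5211 and Mir125b-1 50421 bases after it. Mir99a, at chr16:77598936-77599000, is intronic in 4 of 17 transcripts of the noncoding Mir99ahg, with Mirlet7c-1 656 and Mir125b-2 47272 bases after it. No family hairpin overlapped an exon of its host.

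Of the cluster partners, those that help to tell the loci apart are shown next, from the same source and with the seed in capitals. miR-125b-5p is made from both the chromosome 9 and the chromosome 16 cluster, whereas its 3p arms differ and so mark 1 cluster each.
let-7e-5p: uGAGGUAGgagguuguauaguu
miR-125a-5p: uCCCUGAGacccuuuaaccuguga
miR-125b-5p: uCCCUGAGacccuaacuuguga
miR-125b-1-3p: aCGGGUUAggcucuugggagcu
miR-125b-2-3p: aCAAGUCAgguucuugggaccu
The first is the let-7 and the second the miR-125 of the miR-99b cluster. The fourth comes from the miR-100 cluster and the fifth from the miR-99a cluster.

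Values are reads divided by a factor for each library, as the authors deposited them (deposited values), with recovered miRNA reads of 56377 to 129486 per library for D3 on day 0 and 138397 to 1060306 in the other groups. Column totals differed 17.7-fold between libraries. The main changes are therefore also given on a relative scale, with every library divided by its median ratio over the 319 miRNAs detected in every library. Another view is the share of all miRNA signal in a library. The 7 pluripotency markers of the miR-290 and miR-302 clusters were all detected in every group and made up 9.83 to 14.6% of the signal at day 0, 1.56 to 4.22% in day 7 B8, 0.357 to 0.377% in day 7 D3 and 0.721 to 0.749% in day 21 D3. The mean deposited sum of these 7 markers fell at each D3 step, from 6787 to 2852 and then to 1667. After day 7 its direction was therefore opposite to that of the share. For B8 this sum fell from 19062 to 5251, as the share did. A share also depends on the rest of its library. miR-10b-5p alone averaged 184687 among D3 libraries of day 7, where column totals averaged 776063. In bulk RNA, fewer cells of a type and less RNA per cell cannot be told apart.

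miR-99b-5p was the most abundant member in every library. Its deposited values in B8 at day 0 were 1156, 1227 and 588 in replicates 1 to 3, and at day 7 they were 1605, 969 and 1695. In D3 they were 158, 183 and 130 at day 0, 4781 and 4756 at day 7, and 1481, 1996 and 2812 at day 21. As deposited, the D3 libraries at day 0 were the lowest of all and those at day 7 the highest, without overlap with any other group. B8 at day 7 overlapped both B8 at day 0 and D3 at day 21. On the relative scale D3 at day 7 (2029 and 2030) lay within the range of B8 at day 7 (1250 to 2047). As a share of the signal D3 at day 7 (0.576 to 0.659%) lay below B8 at day 7 (0.675 to 0.871%) and D3 at day 21 (0.815 to 0.995%). By rank, miR-99b-5p stood 49th to 53rd in the libraries of D3 at day 0, 24th to 34th in B8 at day 0 and 17th to 32nd in all later libraries.

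miR-100-5p, which carries the same seed, spanned a far wider range. Its values in B8 were 37.8, 39.2 and 19.0 at day 0 and 347, 193 and 283 at day 7. In D3 they were 1.04, 2.16 and 9.16 at day 0, from 2, 4 and 11 reads. They reached 1161 and 1119 in D3 at day 7 and were 208, 352 and 500 at day 21. Replicate 3 of D3 at day 0 was the shallowest library and had the most miR-100-5p reads of its group. As deposited, B8 at day 7 and D3 at day 21 overlapped, and no other pair of groups did. On the relative scale replicate 3 of D3 at day 0 (24.0) also fell within the range of B8 at day 0 (20.5 to 38.7).

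miR-99a-5p, the near copy of miR-100-5p, was close to undetected at day 0. It had 4, 5 and 6 reads in B8 (values of 2.23, 2.93 and 5.18) and a single read over all 3 D3 libraries (0, 0.539 and 0). The floor of 3 reads, averaged over those D3 libraries, was 1.89, so its level there was not measurable at this depth. Values at day 7 were 164, 135 and 167 in B8 and 905 and 778 in D3, and at day 21 in D3 they were 189, 284 and 358. As deposited, no 2 groups overlapped, and the order was D3 day 7, D3 day 21, B8 day 7, B8 day 0 and D3 day 0. On the relative scale D3 at day 21 (153 to 219) and B8 at day 7 (174 to 202) overlapped.

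miR-99b-3p, the minor arm of the Mir99b hairpin, kept a far narrower range than miR-100-5p and miR-99a-5p, and one closer to that of miR-99b-5p. Values in B8 were 39.0, 28.7 and 24.2 at day 0 and 77.6, 91.7 and 106 at day 7. In D3 they were 17.1, 8.62 and 9.16 at day 0, 267 and 257 at day 7, and 45.8, 42.2 and 51.7 at day 21. As deposited B8 at day 7 lay above D3 at day 21 without overlap, whereas for the other 3 members its mean was the lower one. In relative values the B8 mean was the higher one for miR-99b-3p (109 against 32.9), for miR-99b-5p (1667 against 1448) and for miR-100-5p (320 against 242), and the lower one for miR-99a-5p (183 against 192).

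The remaining minor arms were near the floor. miR-99a-3p had no read in any day 0 library, 1 read in B8 at day 7, 14 reads in each D3 library at day 7 and 3 to 6 reads at day 21. Its D3 mean at day 7 (10.5) was 5.55 times the floor of 3 reads averaged over the D3 libraries at day 0. Read against that floor, its change from day 0 to day 7 as deposited was at least 5.55-fold. The median miRNA rose by 2.25 on the log2 scale in that comparison as deposited, so the bound includes this shift. On the relative scale, explained above, the mean of miR-99a-3p in D3 at day 7 was 4.46, and no bound was set. miR-100-3p had no read at day 0 and at most 5 reads in any library, too few for a comparison.

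**Figure D1:**
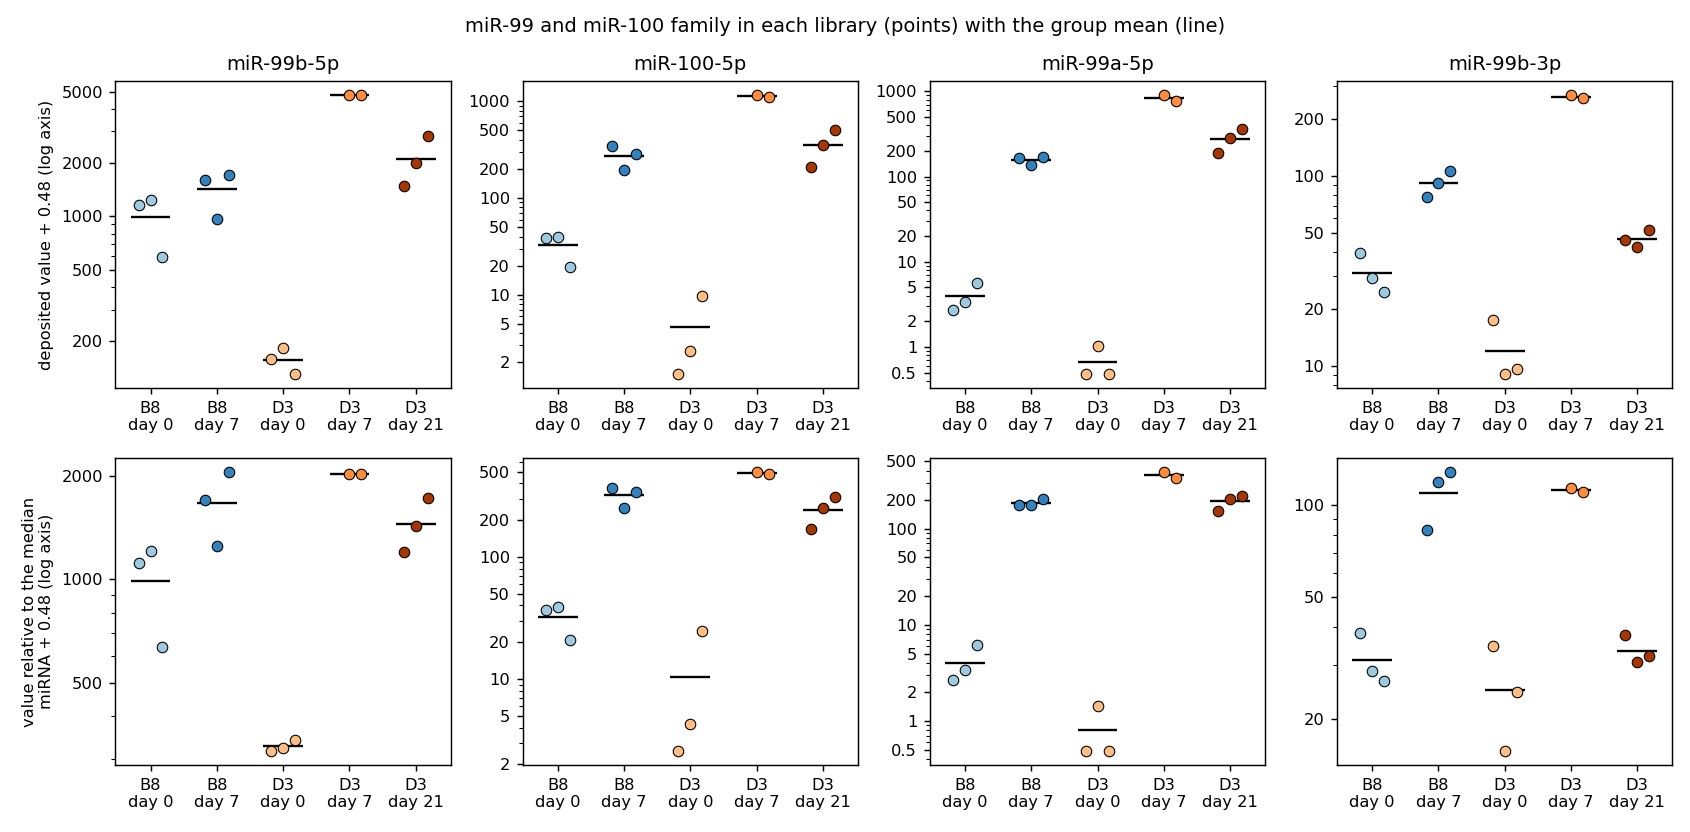
Values of miR-99b-5p, miR-100-5p, miR-99a-5p and miR-99b-3p in each library (points) with group means (lines), plus the pseudocount of 0.48 and on log axes. The top row shows deposited values and the bottom row values on the relative scale. D3 at day 0 has the lowest mean in every panel, and the gap between D3 and B8 at day 7 in the top row narrows or closes in the bottom row.

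As a share of all miRNA signal the family made up 0.739% ± 0.183 (SD, n = 3) in B8 at day 0 and 1.10% ± 0.119 (n = 3) at day 7. In D3 it made up 0.292% ± 0.0210 (n = 3) at day 0, 0.909% ± 0.0715 (n = 2) at day 7 and 1.20% ± 0.13 (n = 3) at day 21. By this measure D3 at day 21, not day 7, had the highest family mean, and its range of 1.06 to 1.32% overlapped that of B8 at day 7 (0.969 to 1.19%). The makeup of the family also differed between days. miR-99b-5p gave 93.5% ± 1.07 of the family signal in B8 at day 0 and 90.5% ± 3.34 in D3 at day 0, against 72.7% ± 2.82 in B8 at day 7, 67.9% ± 1.13 in day 7 D3 and 75.7% ± 1.18 in day 21 D3. miR-100-5p and miR-99a-5p, from the other loci, gave more of the signal at the later days. miR-99a-5p gave 0.407% in B8 at day 0 and 0.0923% in D3 at day 0, and 8.20 to 12.0% in the means of the later groups.

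**Figure D2:**
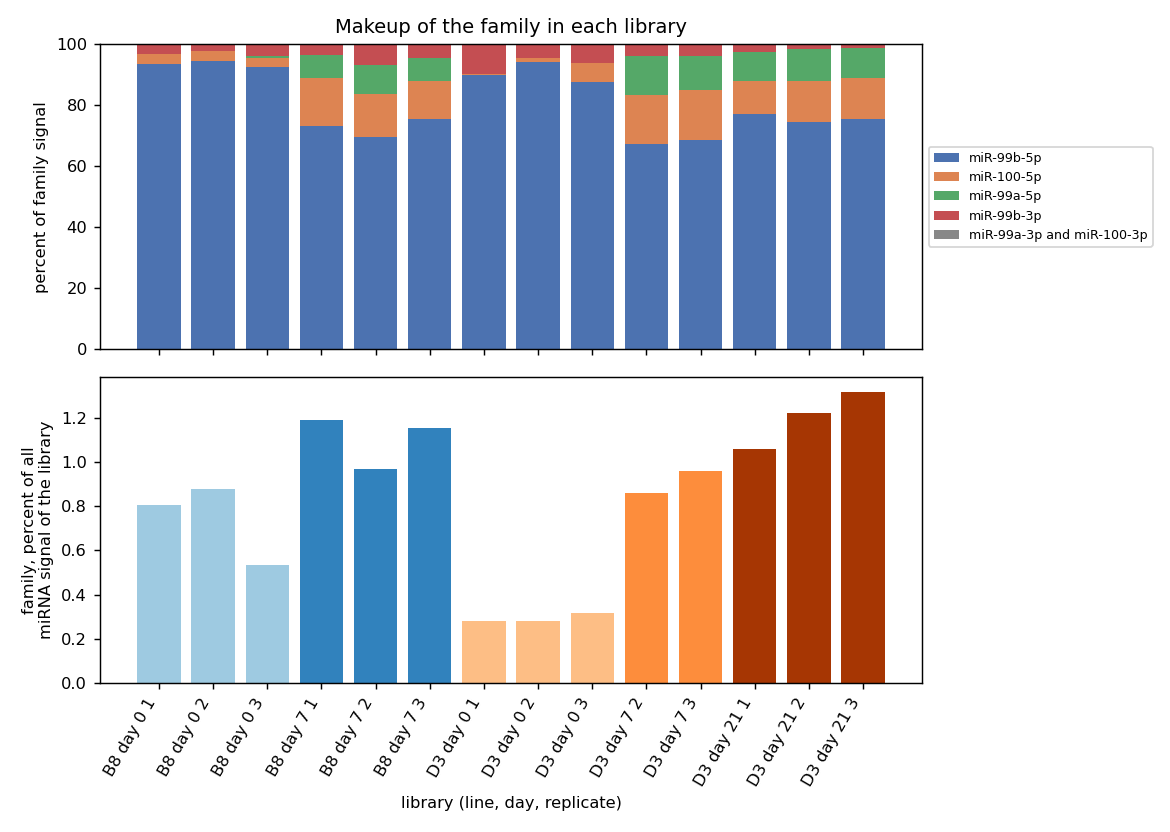
Top: percent of the family signal given by each member in each of the 14 libraries. Bottom: percent of all miRNA signal of the library given by the family. All 6 day 0 libraries are made up of miR-99b-5p to at least 87.6%, and all later libraries hold visible parts of miR-100-5p and miR-99a-5p.

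In B8, day 7 was compared with day 0 to ask how the family changed as embryoid bodies formed. As deposited, 3 of the 4 tested members rose and none fell. The background was high: 49.9% of all 521 miRNAs tested were called in this comparison, 114 higher and 146 lower. miR-99a-5p was 45.1-fold higher (log2 change 5.38 ± 0.34 SE, limma adjusted p = 2.5e-12), from 15 reads in all at day 0. miR-100-5p was 8.57-fold higher (3.11 ± 0.45, limma adjusted p = 2.79e-06) and miR-99b-3p 2.99-fold (1.58 ± 0.29, limma adjusted p = 5.52e-05). miR-99b-5p missed the threshold as deposited (1.44-fold, 0.55 ± 0.29, limma adjusted p = 0.11) and passed it without B8 day 7 replicate 2 (0.81, limma adjusted p = 0.026), as well as on the relative scale (0.78 ± 0.23, limma adjusted p = 0.0076). Its log2 change was 0.21 without B8 day 0 replicate 3 (limma adjusted p = 0.58) and 0.24 with equal column totals (limma adjusted p = 0.30). On the relative scale all 4 rose, against 52.8% of miRNAs called (140 higher, 135 lower), with log2 changes of 5.60 ± 0.38 for miR-99a-5p, 3.34 ± 0.55 for miR-100-5p and 1.81 ± 0.27 for miR-99b-3p. The median log2 change of the 4 was 2.35 as deposited and 2.57 on the relative scale, beside −0.21 and −0.04 over all miRNAs.

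In D3 the same comparison gave larger changes. As deposited all 4 members rose between day 0 and day 7, in a table where 77.4% of miRNAs were called, 367 of them higher and 36 lower, and where the median miRNA rose by 2.25 on the log2 scale. On the relative scale, with 63.1% of miRNAs called (188 higher, 141 lower), all 4 rose as well. miR-99b-5p was 30.4-fold higher as deposited (log2 4.93 ± 0.32, limma adjusted p = 7.32e-13) and 6.22-fold on the relative scale (2.64 ± 0.25, limma adjusted p = 8.33e-08). miR-100-5p was 277-fold higher as deposited, and 714-fold when D3 day 0 replicate 3 was left out. Its relative log2 change was 6.24 ± 0.61 (limma adjusted p = 1.2e-07). For miR-99a-5p, 2243 reads at day 7 stood against 1 at day 0. The ratio of these reads, each scaled by its libraries' deposited factors, was 4184 (95% counting interval 750 to 165325). The limma adjusted p was 8.13e-18 as deposited and 7.27e-12 on the relative scale (log2 9.02 ± 0.42, which rests on the pseudocount). miR-99b-3p was 22.5-fold higher as deposited and 4.56-fold on the relative scale (2.24 ± 0.30, limma adjusted p = 5.31e-06). The members' median log2 change was 6.67 as deposited and 4.44 on the relative scale, where the median over all miRNAs was 0.27.

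By day 21 in D3 the 3 miRNAs with the shared seed were still above day 0 on both scales. As deposited 4 of 4 members were called higher, against 75.4% of miRNAs called (340 higher, 53 lower). In relative values 3 were, against 63.7% (199 higher, 133 lower). miR-99b-5p was 13.4-fold higher as deposited (log2 3.70 ± 0.29, limma adjusted p = 2.44e-11) and 4.44-fold on the relative scale (2.13 ± 0.23, limma adjusted p = 2.43e-07). miR-100-5p was 85.7-fold higher as deposited (221-fold without D3 day 0 replicate 3) and 24.3-fold on the relative scale (5.19 ± 0.55, limma adjusted p = 2.45e-07). For miR-99a-5p, with 2431 reads against 1, the ratio scaled in the same way was 1360 (95% counting interval 244 to 53737), and the limma adjusted p on the relative scale was 3.69e-12. The exception was miR-99b-3p, at 4.01-fold as deposited (2.02 ± 0.29, limma adjusted p = 8.99e-07) and 1.35-fold on the relative scale (0.49 ± 0.27, limma adjusted p = 0.12). The median change of the 4 was 5.16 as deposited and 3.66 on the relative scale, beside 1.69 and 0.41 over all miRNAs.

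Between day 7 and day 21 in D3 the direction for the family depended on the scale. As deposited all 4 members fell, with 39.5% of miRNAs called (42 higher, 164 lower). In relative values only miR-99b-3p of the 4 passed the threshold, with 27.1% called (86 higher, 55 lower), and with all column totals set equal miR-99b-5p instead rose (log2 0.55, limma adjusted p = 0.043). miR-99b-3p was 5.63-fold lower as deposited (log2 −2.48 ± 0.32, limma adjusted p = 1.99e-06) and 3.38-fold lower on the relative scale (−1.75 ± 0.30, limma adjusted p = 0.000324). With equal totals it did not pass (limma adjusted p = 0.083). The relative log2 changes of miR-99b-5p, miR-100-5p and miR-99a-5p were −0.50 ± 0.25, −1.05 ± 0.61 and −0.91 ± 0.42 (limma adjusted p = 0.16, 0.23 and 0.12). Their relative means at day 21 were 1.40-, 2.01- and 1.87-fold lower than at day 7, and in each of the 3 the libraries of the 2 days did not overlap. As deposited, the call of miR-100-5p (−1.78 ± 0.50, limma adjusted p = 0.00695) was lost without D3 day 7 replicate 2 (limma adjusted p = 0.071), without D3 day 7 replicate 3 (0.055) and without D3 day 21 replicate 1 (0.051). The 206 miRNAs called in all became 110 without D3 day 7 replicate 2 and 129 without replicate 3. Median changes were −1.71 for the 4 members and −0.60 for all miRNAs as deposited, and −0.98 and 0.01 on the relative scale.

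At day 0, before differentiation, the family was lower in D3. As deposited all 4 members were lower in D3 than in B8, with 47% of miRNAs called (5 higher, 240 lower). On the relative scale 3 were lower, with 23.6% called (40 higher, 83 lower). miR-99b-5p was 6.31-fold lower as deposited (log2 −2.59 ± 0.29, limma adjusted p = 5.9e-08) and 3.03-fold lower on the relative scale (−1.54 ± 0.23, limma adjusted p = 5.12e-05). miR-100-5p was 7.78-fold lower as deposited, and 20.1-fold lower without D3 day 0 replicate 3. On the relative scale its change was −2.28 ± 0.55 (limma adjusted p = 0.00487), and there that replicate (24.0) overlapped the B8 libraries (20.5 to 38.7). For miR-99a-5p the comparison was of 1 read with 15, a ratio of 0.0623 after scaling by the deposited factors (95% counting interval 0.00148 to 0.405). Its limma adjusted p was 1.23e-06 as deposited and 8.98e-05 on the relative scale. miR-99b-3p missed the threshold on the relative scale (−0.38 ± 0.27, limma adjusted p = 0.36). The median change of the members was −2.60 as deposited and −1.91 on the relative scale, beside −0.90 and −0.11 over all miRNAs.

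At day 7 the order of the lines was reversed as deposited, and no difference was called on the relative scale. As deposited all 4 members were higher in D3, by 2.86- to 5.42-fold, but 75.2% of miRNAs were called and 344 of those 392 were higher. In relative values 0 of 4 members passed, against 41.5% of miRNAs called (129 higher, 87 lower). The relative log2 differences were 0.31 ± 0.25 for miR-99b-5p, 0.62 ± 0.61 for miR-100-5p, 0.96 ± 0.42 for miR-99a-5p and 0.05 ± 0.30 for miR-99b-3p (limma adjusted p = 0.34, 0.44, 0.082 and 0.91). With column totals set equal, miR-99b-5p, miR-100-5p and miR-99b-3p were below B8, also without a call. By edgeR on the recovered reads 1 member passed, miR-99a-5p (higher in D3). The median difference of the members was 1.94 as deposited and 0.47 on the relative scale, beside 1.71 and 0.37 over all miRNAs.

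The change from day 0 to day 7 was itself compared between the lines. As deposited it was larger in D3 for all 4 members, with 74.3% of miRNAs called (374 higher, 13 lower) and a median over all miRNAs of 2.64. On the relative scale, with 33.2% called (108 higher, 65 lower) and a median of 0.49, it was larger for the 3 miRNAs with the shared seed. The difference on that scale was 1.86 ± 0.34 for miR-99b-5p (limma adjusted p = 0.000383), 2.90 ± 0.82 for miR-100-5p (limma adjusted p = 0.0107) and 3.42 ± 0.57 for miR-99a-5p (limma adjusted p = 0.000168). For miR-99b-3p it was 0.43 ± 0.41 (limma adjusted p = 0.46). This comparison shares its libraries with the ones above. Both the lower start in D3 and the level reached at day 7 enter it.

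**Figure D3:**
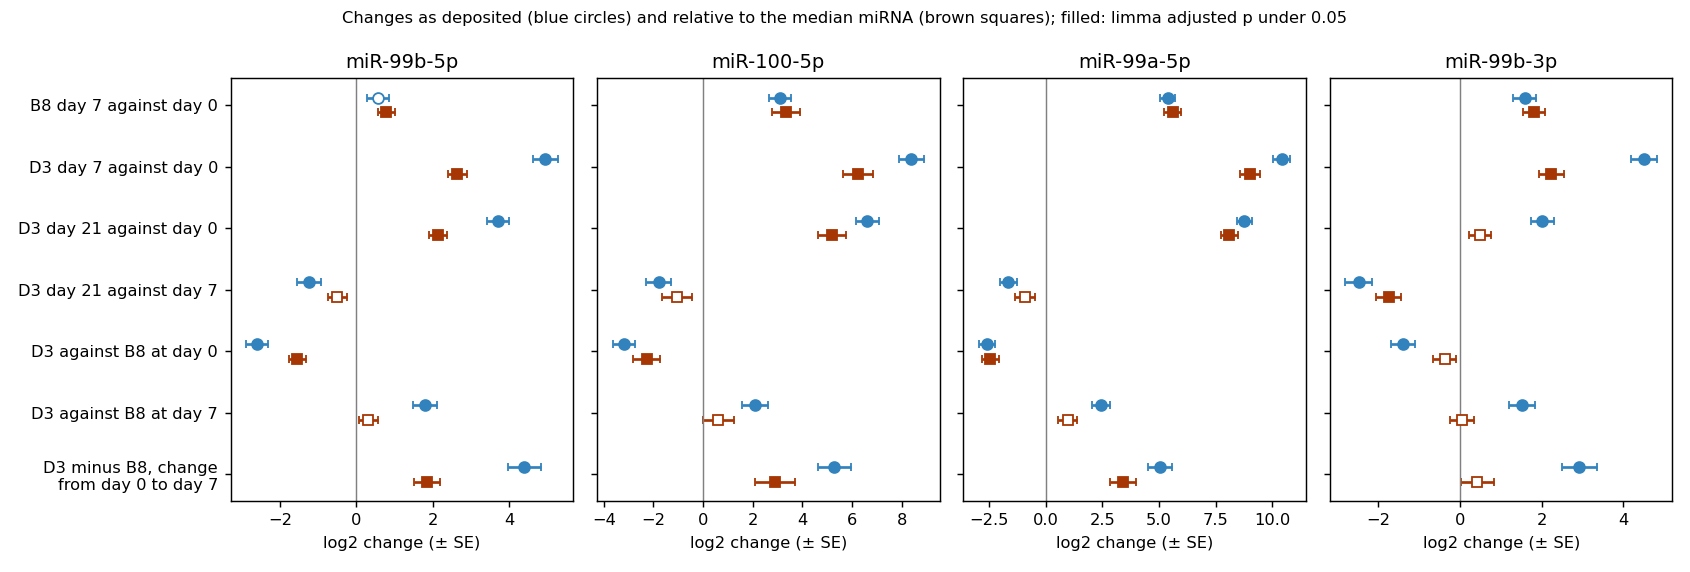
Log2 change with its standard error for each tested member in the 6 comparisons and in the difference between the lines, as deposited (circles) and on the relative scale (squares). Filled symbols had a limma adjusted p under 0.05. Circles and squares lie close in B8 and apart in most comparisons that involve D3, and all 4 squares are open for D3 against B8 at day 7.

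Markers of other cell types also differed between these groups, given here as shares of the signal, whose direction was not always that of the deposited values. The 4 neural markers (miR-9-5p, miR-124-3p, miR-219a-2-3p and miR-128-3p) summed to 0.0799 to 0.106% of the signal in day 0 B8, 1.16 to 1.23% in day 7 B8, 0.0766 to 0.0904% in day 0 D3, 1.35 to 1.41% in day 7 D3 and 0.679 to 0.801% in day 21 D3. The 4 markers of mesenchyme and smooth muscle (miR-143-3p, miR-145a-5p, miR-199a-3p and miR-214-3p) summed to 1.31 to 1.51%, 0.331 to 0.891%, 0.182 to 0.231%, 0.671 to 0.893% and 3.85 to 4.92% in that order. In B8 the mean of this sum as deposited fell from 1996 at day 0 to 903 at day 7. Its member miR-214-3p went the other way there, from a mean of 23.0 to 118. miR-214-3p was at 0 in all D3 libraries at day 0. The 4 muscle markers stayed at or below 0.00429% outside D3 at day 21, where they reached 0.122 to 0.339% and where alone miR-206-3p was above 0. The 4 epithelial markers summed to 0.542 to 0.651%, 0.195 to 0.328%, 0.267 to 0.303%, 0.0565 to 0.0795% and 0.334 to 0.483%, again in that order. As deposited, their mean sum in D3 rose from 168 at day 0 to 522 at day 7, whereas in B8 it fell from 808 to 457. The 4 endoderm markers were highest in D3 at day 21 (0.253 to 0.307%) and between 0.0398 and 0.12% elsewhere. Their share in D3 fell from day 0 to day 7, while their mean sum as deposited rose from 61.2 to 320. The 4 endothelial and blood markers lay between 0.00917 and 0.0826%, with miR-451a at 0 in every group except D3 at day 21 and miR-223-3p at 0 in both day 0 groups and in D3 at day 7. A list of 4 names that can hold fragments of other RNAs (miR-6240, miR-6539, miR-2137 and miR-1983), read as a sign of RNA quality, gave 0.511 to 0.612% for day 0 D3 libraries and 0.272 to 0.279% for day 0 B8 libraries, against 0.0383 to 0.104% in the later libraries. As deposited, the mean sum of this list was 335, 303 and 159 in D3 at days 0, 7 and 21, and 386 and 156 in B8 at days 0 and 7. The part of these cell types and fragments in the family's changes was not tested.

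The let-7 and miR-125 members listed for the 3 clusters were followed beside the family. let-7a-5p, let-7c-5p and miR-125b-5p are also made from other loci, so their values do not read 1 cluster alone. Of 11 listed, 10 were rows of the table (all except let-7a-2-3p) and all 10 were tested. In B8 from day 0 to day 7, 8 of 10 rose on either scale (background 49.9% of miRNAs called as deposited and 52.8% in relative values) and 2 did not pass, miR-125b-5p and miR-125b-1-3p. In D3 all 10 rose by day 7 (77.4% and 63.1%) and by day 21 (75.4% and 63.7%) on either scale. From day 7 to day 21 as deposited 6 of 10 fell and none rose (39.5%), while on the relative scale (27.1%) 2 rose (let-7a-5p and let-7c-5p) and 3 fell (miR-125a-5p, miR-125a-3p and let-7c-1-3p). At day 0, 9 of 10 were lower in D3 than in B8 as deposited (47%) and 6 on the relative scale (23.6%). At day 7, 10 of 10 were higher in D3 as deposited (75.2%) and 4 on the relative scale, a share near the background of 41.5%. The change from day 0 to day 7 was larger in D3 for 10 of 10 as deposited (74.3%) and 8 on the relative scale (33.2%). let-7a-5p and let-7e-5p, and let-7a-5p and let-7c-5p, differ by 1 base each (U9G and A19G), so their values are uncertain one by one.

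Ratios inside a library do not depend on its scaling. They were tested between groups with 2-sided exact permutation tests, which cannot go below p = 0.1 for 3 libraries against 3 or below 0.2 for 3 against 2. Over the 28 tests made the lowest adjusted p was 0.243, so none passed, and the ratios are read by whether groups overlap. In the miR-99b cluster, miR-99b-5p stood well above let-7e-5p at day 0 and level with it later. The ratio was 4.23, 4.88 and 2.97 in B8 at day 0 and 5.45, 6.54 and 5.38 in D3 at day 0. It was 1.12, 0.952 and 1.12 in B8 at day 7, 1.22 and 1.15 in day 7 D3, and 0.837, 0.953 and 1.10 in day 21 D3. Both day 0 groups lay above all later libraries. The drop was 3.71-fold in B8 by day 7 (exact permutation p = 0.1) and 4.86-fold (exact permutation p = 0.2) and 6.01-fold (exact permutation p = 0.1) in D3 by days 7 and 21. D3 at day 0 also lay above B8 at day 0, by 1.46-fold (exact permutation p = 0.1).

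Against miR-125a-5p, the miR-125 of that cluster, the shift was smaller. The mean ratio of miR-99b-5p to miR-125a-5p was 2.89 ± 0.92 in B8 at day 0 and 1.33 ± 0.39 at day 7 (2.14-fold lower, exact permutation p = 0.1). In D3 it was 1.66 ± 0.31 at day 0, 0.964 ± 0.030 at day 7 and 1.01 ± 0.21 at day 21. The D3 libraries of days 7 and 21 lay below those of day 0 and overlapped each other.

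The arms of the Mir99b hairpin did not keep a fixed ratio. miR-99b-5p exceeded miR-99b-3p 29.7-, 42.8- and 24.3-fold in B8 at day 0 and between 10.6- and 20.7-fold at day 7, with no overlap (2.06-fold lower, exact permutation p = 0.1). In D3 the ratio was 9.24, 21.3 and 14.2 at day 0, where miR-99b-3p had 11 to 33 reads, and 17.9 and 18.5 at day 7. At day 21 it was 32.3, 47.3 and 54.4, above both earlier D3 groups (3.10-fold over day 0, exact permutation p = 0.1). miR-125a, added to the comparison after its values were seen and without a test, had mean 5p to 3p ratios of 28.4 ± 5.17 and 34.5 ± 19.5 in B8 at days 0 and 7. In D3 they were 17.3 ± 2.79 at day 0, 38.3 ± 3.72 at day 7 and 62.5 ± 9.70 at day 21, so its highest group was also D3 at day 21.

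**Figure D4:**
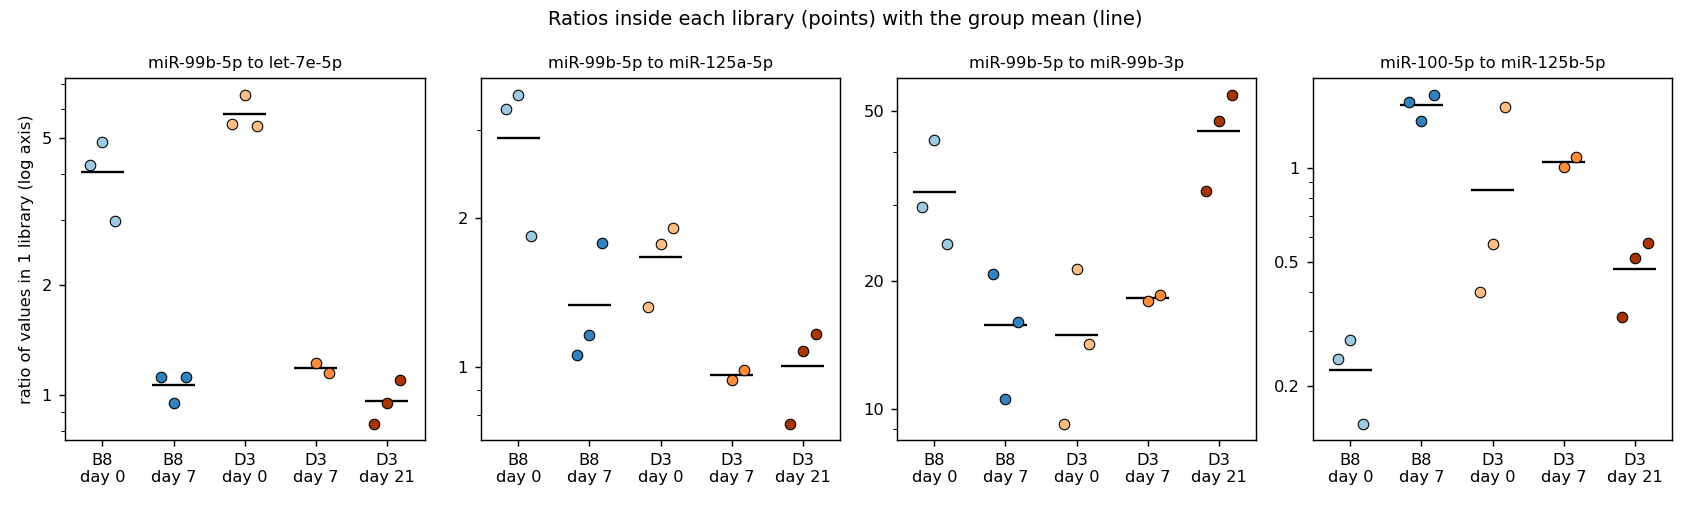
Ratios within each library (points) and their group means (lines) on log axes: miR-99b-5p to let-7e-5p, to miR-125a-5p and to miR-99b-3p, and miR-100-5p to miR-125b-5p. The ratio to let-7e-5p is near 1 in all groups after day 0, the arm ratio is highest in D3 at day 21, and the D3 day 0 points of the last panel rest on 2 to 11 reads.

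In the miR-100 cluster the members did not move together in B8. miR-125b-1-3p, which marks this cluster, had values of 117, 142 and 115 at day 0 and 171, 102 and 156 at day 7 (1.15-fold, log2 0.17 ± 0.28, limma adjusted p = 0.62). miR-125b-5p likewise went from a mean of 140 to 171 (1.22-fold, 0.27 ± 0.26, limma adjusted p = 0.41). The ratio of miR-100-5p to miR-125b-5p was 0.244, 0.280 and 0.151 in B8 at day 0 and 1.63, 1.41 and 1.72 at day 7, which is 7.28-fold higher without overlap (exact permutation p = 0.1). Against miR-125b-1-3p, a ratio added after the values were seen and not tested, miR-100-5p stood at 0.324, 0.276 and 0.165 at day 0 and at 2.03, 1.89 and 1.81 at day 7. In D3 the cluster was near the floor at day 0, with 3 to 6 reads of miR-125b-1-3p per library. There miR-125b-1-3p rose 285-fold by day 7 as deposited and 54.0-fold on the relative scale (5.83 ± 0.34, limma adjusted p = 1.34e-10), beside 277- and 48.7-fold for miR-100-5p. At day 0 miR-125b-1-3p was 42.1-fold lower in D3 than in B8 as deposited, beside 7.78-fold for miR-100-5p (20.1-fold without D3 day 0 replicate 3). In relative values these were 18.9- and 3.20-fold.

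In the miR-99a cluster, miR-125b-2-3p, which marks it, moved the same way as miR-99a-5p. It had values of 3.34, 3.51 and 1.73 in B8 at day 0 and 32.9, 24.1 and 23.3 at day 7 (9.36-fold, log2 3.06 ± 0.42, limma adjusted p = 1.24e-06), beside 45.1-fold for miR-99a-5p. In D3 it went from 4 reads over the 3 libraries at day 0 to values of 258 and 215 at day 7 and 64.8, 74.0 and 101 at day 21. The ratio of miR-99a-5p to let-7c-5p, which also comes from a locus on chromosome 15, was 0.0938 ± 0.016 in B8 at day 7, 0.234 ± 0.020 in day 7 D3 and 0.0725 ± 0.0065 in day 21 D3. The day 0 libraries had too few miR-99a-5p reads for this ratio. The D3 libraries at day 7 lay above both other groups, by 2.51-fold over B8 at day 7 and by 3.22-fold over D3 at day 21 (exact permutation p = 0.2 each).

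**Figure D5:**
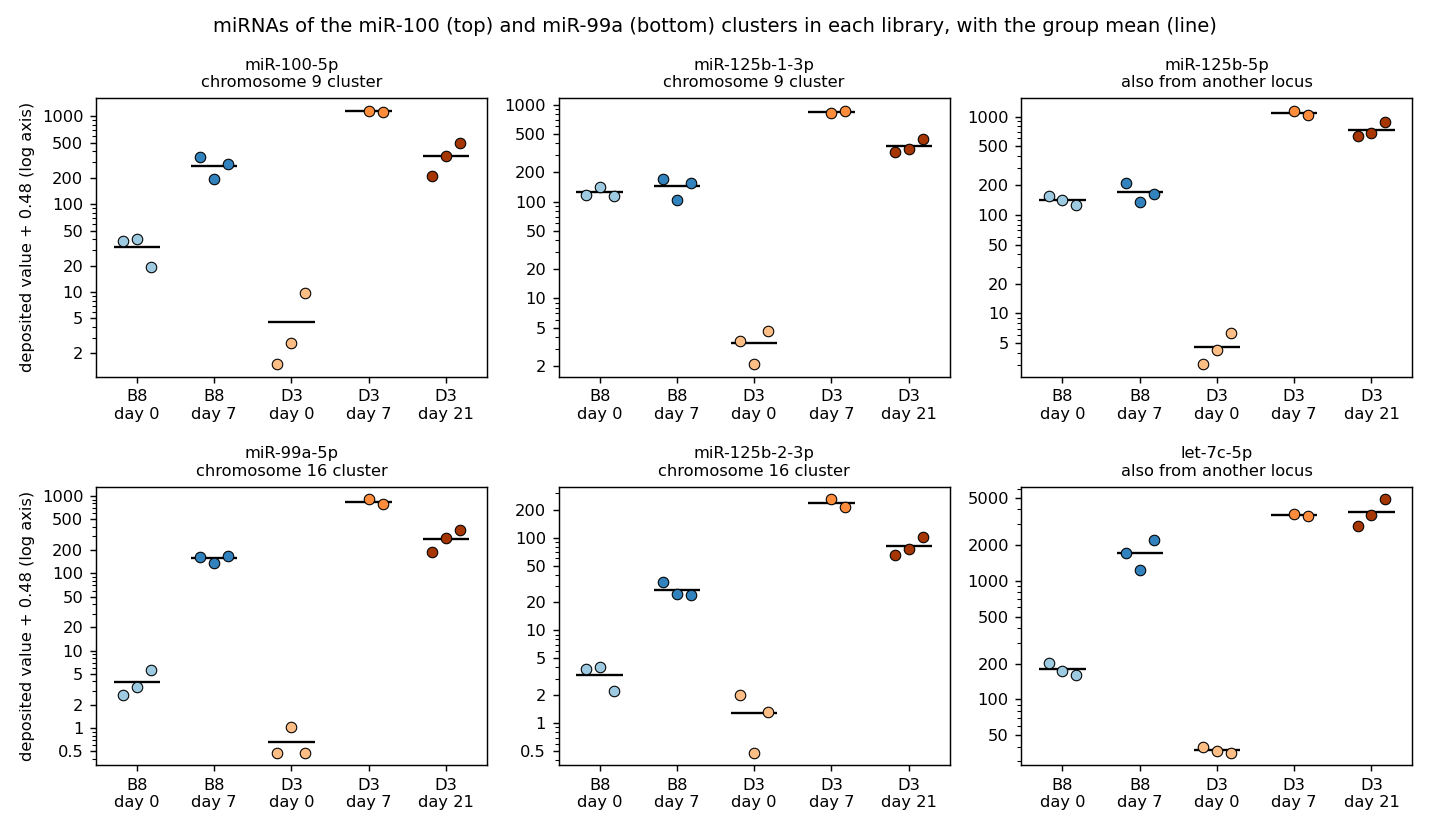
Deposited values plus 0.48 in each library (points, log axes) with group means (lines), for miR-100-5p, miR-125b-1-3p and miR-125b-5p (top) and miR-99a-5p, miR-125b-2-3p and let-7c-5p (bottom). In B8, both miR-125b miRNAs of the top row overlap between days 0 and 7, whereas all 3 miRNAs of the bottom row and miR-100-5p are higher at day 7 without overlap.

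Within the family, miR-100-5p exceeded miR-99a-5p in the mean of every group, and the ratio of miR-99a-5p to miR-100-5p was 0.588 ± 0.113 in B8 at day 7, 0.738 ± 0.060 in day 7 D3 and 0.811 ± 0.097 in day 21 D3. Neither tested pair of these groups was separate (exact permutation p = 0.4 each). The ratio of miR-100-5p to miR-99b-5p was 0.0327, 0.0320 and 0.0323 in B8 at day 0, where replicate 3 had the lowest values of both. These ratios rest on 68, 67 and 22 reads of miR-100-5p, so counting error is wider than their spread and the closeness cannot be read as a fixed ratio. The ratio was 0.194 ± 0.025 in B8 at day 7, 0.239 ± 0.0053 in day 7 D3 and 0.165 ± 0.021 in day 21 D3.

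The miRNAs whose pattern was most like each member's were found by Pearson's r on the relative log2 scale over the 14 libraries, which fall into 5 groups and share depth and scaling within a library, so r is given as a description. For miR-99b-5p they were miR-214-3p (r = 0.95), let-7e-5p (0.94) of its own cluster and miR-181a-5p (0.94). For miR-100-5p they were miR-181a-1-3p (0.97), miR-181a-5p (0.97) and miR-10b-5p (0.96). For miR-99a-5p they were miR-598-3p (0.99), miR-181b-5p (0.98) and miR-125a-5p (0.98). The list for miR-99b-3p was apart from these, with miR-615-5p (0.93), miR-125a-3p (0.91) and miR-219a-1-3p (0.91). Its r with miR-99b-5p, the other arm of its own hairpin, was 0.71 (0.89 on deposited values and 0.35 on shares). miR-99b-3p was at rank 102 of 520 among the miRNAs most like miR-99b-5p, which was at rank 55 among those most like miR-99b-3p. The order of the lists also depended on the scale. By deposited values the miRNAs named ranked 7th, 6th and 23rd for miR-99b-5p and 1st, 2nd and 4th for miR-100-5p. They ranked 5th, 3rd and 16th for miR-99a-5p and 13th, 3rd and 1st for miR-99b-3p. miR-214-3p, miR-598-3p and miR-615-5p averaged 0 in D3 at day 0, so the pseudocount enters their r.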

How the data were processed

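The deposited miRNA table holds signal: reads per mature miRNA that the authors divided by a factor for each library, named TMM in the table's title. Per the submitters' processing notes CASAVA, FastQC, Bowtie and Partek were used with the mm10 genome, without versions or roles. Column names per the file headers also show adapter trimming with cutadapt and a length step. How reads that match several miRNAs were counted is not given in the sources used here, and an error there would move reads between near-identical members.

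Whole reads were recovered: among values of at most 1000 reads, 100% per library were whole-number multiples of a library's unit (tolerance 0.01 of a read). Of 17 labelled samples, 14 in 5 groups had columns, and 3 were not analysed here. No 2 libraries were identical.

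A pseudocount of 0.48 (2 per 1000000 of the mean column total) was added before taking log2, which understates changes of low miRNAs. The filter, a mean of 5 or more per 1000000, kept 521 of 1033 rows. limma 3.58.1 (R 4.3.3) fitted the means of 5 groups, leaving 9 residual degrees of freedom, and its prior followed the mean level (trend). Tests were 2-sided and adjusted by Benjamini-Hochberg over all 521 miRNAs at 0.05, after the fit was tested on simulated data. The relative scale used median-of-ratios factors over 319 miRNAs, and edgeR 4.0.16 was run on the recovered reads. Ratios were tested only where every library had at least 10 reads of both miRNAs. Intervals and floors (3 reads) reflect counting error alone, because PCR copies of a molecule are counted as separate reads.

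Named miRNAs were all family rows, the listed members of the 3 clusters, the 3 most alike per tested member and the markers. Members and lists were chosen with earlier results of these data known. Alternatives were 4 other scalings, other pseudocounts and filters, no trend, a fit of only the groups being compared, a replicate block, edgeR, and each library left out in turn.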

Additional observations from a re-analysis of the deposited data

Results flagged for a closer look

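The change from day 0 to day 7 differed between the lines for all 4 tested members, by a test of the difference itself on the deposited values (limma, Benjamini-Hochberg). The change in D3 minus that in B8 was 4.38 for miR-99b-5p (adjusted p = 5.48e-09), 5.29 for miR-100-5p (2.76e-07), 5.04 for miR-99a-5p (1.1e-08) and 2.92 for miR-99b-3p (1.98e-06) on the log2 scale. The background was high: 74.3% of all 521 miRNAs were called, 374 higher and 13 lower, and the median over all of them was 2.64. On the relative scale the differences were 1.86, 2.90, 3.42 and 0.43, and the last did not pass (limma adjusted p = 0.46). On that scale 33.2% of miRNAs were called (108 higher, 65 lower). As deposited D3 was lower at day 0 in every member, whereas on the relative scale miR-99b-3p was not called there (log2 −0.38, limma adjusted p = 0.36). The size of the difference rests in part on 17 reads of miR-100-5p and 1 read of miR-99a-5p over the 3 D3 libraries at day 0.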

How the results depend on the processing

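Scaling mattered most for the comparisons at and after D3 day 7. Of 336 values of the 4 members under other settings, 282 kept their direction and their side of the threshold, 41 lost the call, 4 gained it and 9 changed sign. With equal column totals, D3 day 21 against day 7 gave log2 values of 0.55, 0.00873 and 0.14 for miR-99b-5p, miR-100-5p and miR-99a-5p, and D3 against B8 at day 7 gave −0.38, −0.068 and −0.63 for miR-99b-5p, miR-100-5p and miR-99b-3p. The difference in change of miR-99b-3p between the lines became −0.43 there. For D3 against B8 at day 7, miR-99b-3p was at −0.019 with TMM over the miRNA rows and −0.22 by edgeR. Pseudocounts, filters, trend and the compared groups alone changed 2 calls of these 4 members, both with a pseudocount of 0.2 per 1000000 for D3 day 21 against day 7 (2 of 4 members called). With no filter miR-99a-3p was called as well in 5 comparisons (adjusted p at most 0.00114). It was lower for D3 day 21 against day 7 and higher in the other 4, namely both later D3 days against day 0, the lines at day 7, and their difference in change. For D3 day 21 against day 0 its day 21 mean (1.43) was under the mean floor of 3 reads at day 0 (1.89). That call therefore rests on the pseudocount and on depth, and no fold is given. With the groups compared alone miR-99a-3p passed the filter and was called in 3 of the 5 comparisons, both successive steps in D3 and the lines at day 7.

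Members called for D3 day 21 against day 7 numbered 1 with equal totals (miR-99b-5p, higher), 1 with relative factors or TMM (miR-99b-3p, lower), 3 by edgeR (lower) and 2 when totals were equalised outside miR-10a-5p and miR-10b-5p. Over all 521 miRNAs 199 were called higher and 11 lower with equal totals, and 86 and 55 with relative factors. With TMM these were 104 and 45, with totals equal outside miR-10a-5p and miR-10b-5p 56 and 83, and by edgeR 140 and 74. For D3 against B8 at day 7 the members called numbered 0 under each of these 4 scalings and 1 by edgeR. For the difference between the lines 2 were called with equal totals. Over all miRNAs the counts, in the order equal totals, relative factors, TMM, totals equal outside miR-10a-5p and miR-10b-5p, and edgeR, were 113, 123, 119, 115 and 119 for D3 against B8 at day 0, 166, 216, 206, 208 and 216 at day 7, and 158, 173, 169, 161 and 159 for the difference between the lines. edgeR called 265 miRNAs for B8 day 7 against day 0, and 327, 339 and 214 for D3 day 7 against 0, 21 against 0 and 21 against 7. A filter at 50 per 1000000, which tests fewer miRNAs, left 251 for D3 day 7 against day 0, 258 for D3 day 21 against day 0 and 261 for D3 against B8 at day 7. Other causes were not tested.

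Leaving out each library kept 388 of 392 member values, with 3 calls lost and 1 gained. The count of all miRNAs for D3 day 21 against day 7 ran from 110 to 220. The log2 ratio of miR-99b-5p to miR-99b-3p for D3 against B8 at day 7 ran from −0.000898 to 0.48, and that of miR-99b-5p to miR-125a-5p for D3 day 21 against day 7 from −0.083 to 0.22. Replicate numbers did not pair the samples (correlations of deviations −0.088 to 0.14). With a replicate block all 28 member values kept their call, and 259 miRNAs were called for B8 day 7 against day 0 in place of 260. Depth limits day 0 in D3, where miR-99a-5p had 1 read and miR-100-5p 17.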
